A study of Mus musculus with 4 samples.

Results

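The enzymes described here are the 7 genes Phgdh, Psat1, Psph, Shmt1, Shmt2, Mthfd1 and Mthfd2, measured on arrays of whole kidneys from mouse embryos of stage E14.5 (Theiler stage 22). They were read through the 20 probe sets, of 45101 on the array, that the platform annotation pairs with 1 of these genes alone. The mutant kidneys carried the null allele Wnt4tm1Amc on a background given as 129, and each of their 2 arrays held RNA pooled from 12 kidneys. The wild-type kidneys were given as CD-1, and each of their 2 arrays held RNA pooled from 2 kidneys. The protocol text that all 4 arrays share speaks of CD-1 matings, which differs from the strain given for the mutant. Genotype, stated strain and pool size changed together and cannot be told apart here. The genes were chosen with this comparison in view, because probe sets of Phgdh disagreed in it, so their differences are given as a description with SEs and counts and without p-values.

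Phgdh, Psat1 and Psph encode the enzymes that make serine from the glycolytic intermediate 3-phosphoglycerate. Serine hydroxymethyltransferases, cytosolic Shmt1 and mitochondrial Shmt2, then convert serine to glycine and load its carbon unit onto tetrahydrofolate. Cytosolic Mthfd1 and mitochondrial Mthfd2 carry that unit between oxidation states, and it goes into purines, thymidylate and methionine. These pathways are known to be active in growing embryonic tissues, and Mthfd2 is best known from embryonic and dividing cells.

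Values are the deposited signal intensities, which are linear and had nearly equal trimmed means on all 4 arrays. Differences are mutant minus wild-type on the log2(signal + 16) scale, and folds are the same differences taken out of the log. A probe set was called when its limma p, adjusted over all 27022 tested probe sets, was below 0.05. All 20 member probe sets were bright enough to be tested. With 2 arrays in each group, 0.33 is the smallest two-sided p of an exact permutation test. The labels do not say whether pools came from separate litters, so the spread between arrays may be technical. Replicate arrays correlated at 0.974 (mutant) and 0.969 (wild-type), and arrays of different genotype at 0.953 to 0.959. Ratios of 3′ to 5′ control signals for the transferrin receptor were 5.67 and 6.43 on the mutant arrays, against 4.71 and 5.10 on the wild-type arrays. For Gapdh they were 0.753 and 0.744 against 0.777 and 0.750, and for actin 1.56 and 1.54 against 1.59 and 1.43. Any part of RNA quality or labelling in the signals was not tested.

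The targeted gene Wnt4 had signals of 406 and 272 on the mutant arrays, against 1885 and 1770 on the wild-type arrays (limma adjusted p = 0.000196). The kidney genes Six2, Wt1, Foxd1 and Ret, of nephron progenitors, podocytes, stroma and ureteric bud, were read at their brightest probe sets. Foxd1 was called higher, at 6938 and 6715 on the mutant arrays, against 2028 and 2393 on the wild-type arrays (limma adjusted p = 7.39e-05). Six2 (3235 and 2670 against 3760 and 2896), Wt1 (2284 and 1839 against 3195 and 2496) and Ret (252 and 316 against 397 and 372) were not called. Ret was called lower at its other probe set, at 213 and 214 on the mutant arrays, against 436 and 446 on the wild-type arrays (limma adjusted p = 0.00992).

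Most probe sets of these enzymes had modestly lower signals in the mutant kidneys, and 1 lay far outside that pattern. Of the 20 probe sets, 18 had a lower mean of log2(signal + 16) on the mutant arrays and 2 a higher one. Their median log2 difference was -0.46, beside -0.01 over all tested probe sets. Of the 20, 9 were called lower and 1 higher, where 5.39% of all tested probe sets were called lower and 5.41% higher (10.8% in either direction). Since the genes were chosen from this contrast, nothing is read from these counts. The mutant and wild-type arrays did not overlap at 16 probe sets with the mutant lower and at 1 with the mutant higher, shares that over all tested probe sets were 28.0% and 26.1%. Called probe sets were found for 5 of the 7 genes, and for Psat1 and Psph there were none. Without mutant replicate 2 the number of called members fell to 6, and the 4 calls lost were those of Phgdh at 1437621_x_at and 1456584_x_at and of Shmt2 at 1455084_x_at and 1426423_at. It was also 6 when each array was centred on its median, and 4 when the variance model had no intensity trend.

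**Figure D1:**
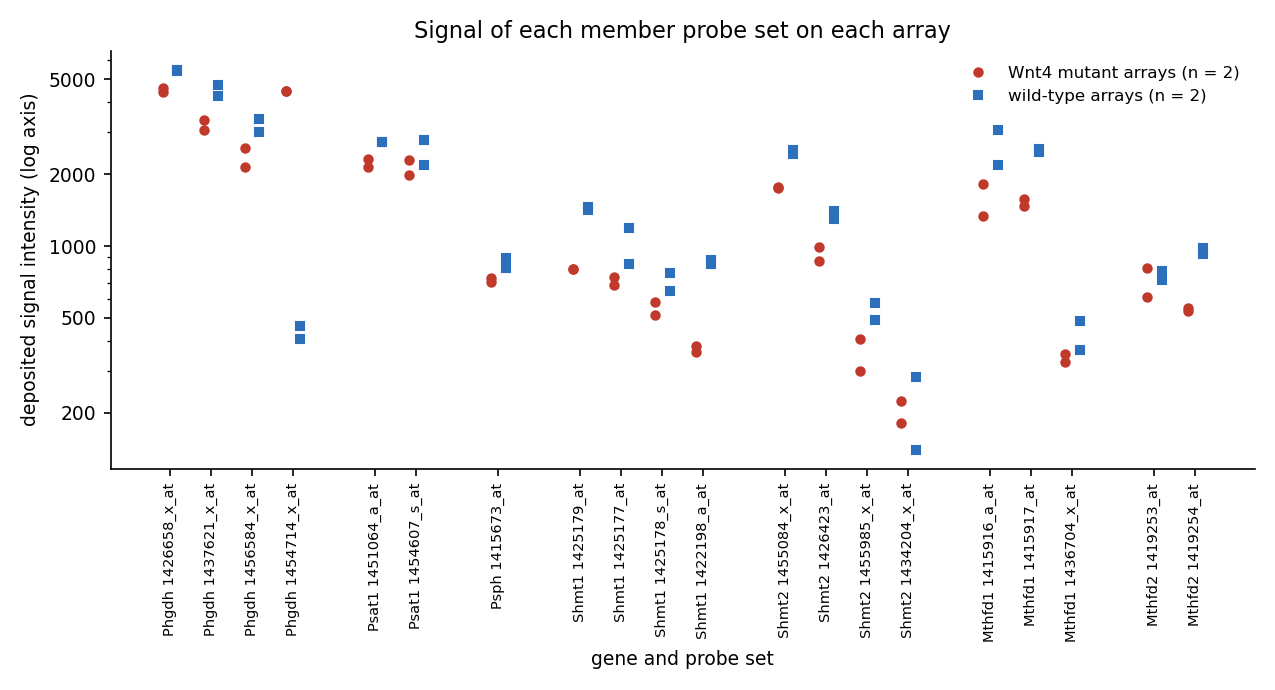
Deposited signal intensity (log axis) of each of the 20 member probe sets, grouped by gene; circles are the 2 Wnt4 mutant arrays and squares the 2 wild-type arrays. The mutant arrays lie below the wild-type arrays at 16 probe sets, and at Phgdh 1454714_x_at they lie at 4478 and 4489 and the wild-type arrays at 463 and 409.

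Phgdh, 3-phosphoglycerate dehydrogenase, catalyses the first step of serine synthesis and had 4 probe sets of its own. At 1426658_x_at the signal was 4417 and 4616 on the mutant arrays, against 5486 and 5438 on the wild-type arrays, a log2 difference of -0.27 ± 0.08 (SE). At 1437621_x_at it was 3368 and 3057 on the mutant arrays, against 4253 and 4726 on the wild-type arrays (-0.48 ± 0.09). At 1456584_x_at it was 2568 and 2143 on the mutant arrays, against 3395 and 3020 on the wild-type arrays (-0.45 ± 0.11). At these 3 probe sets both mutant arrays lay below both wild-type arrays, as they did at 28.0% of all tested probe sets. The last 2 of the 3 were called lower. The calls at 1437621_x_at and 1456584_x_at held under 10 and 8 of 13 alternative settings. That at 1456584_x_at was lost, among others, without wild-type replicate 1 as well as without mutant replicate 2.

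The fourth Phgdh probe set, 1454714_x_at, went the other way and by much more. Its signal was 4478 and 4489 on the mutant arrays, against 463 and 409 on the wild-type arrays, a log2 difference of 3.32 ± 0.10 and a 9.97-fold higher level in the mutant. The arrays of each genotype lay close together and the groups did not overlap. Its log2 difference lay 3.76 above the median of the other Phgdh probe sets. Among all 27022 tested probe sets it ranked at place 6 from the highest difference. It was called higher under each of the 13 alternative settings in which it was tested, with differences from 3.19 to 3.40.

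The platform annotation pairs Phgdh and a second gene with 2 further probe sets, which are not counted among the 20. The second genes, Gm8096 and Gm6756, are transcribed pseudogenes in RefSeq. At 1426657_s_at (Gm8096 and Phgdh) the signal was 1901 and 1732 on the mutant arrays, against 2982 and 3531 on the wild-type arrays, a log2 difference of -0.83 ± 0.11. At 1456471_x_at (Gm6756 and Phgdh) it was 2269 and 2385 on the mutant arrays, against 374 and 364 on the wild-type arrays, a log2 difference of 2.61 ± 0.11 and a 6.09-fold higher level in the mutant. Of the 6 probe sets that name Phgdh, 4 were therefore lower in the mutant by log2 differences between -0.83 and -0.27, and 2 were higher by 2.61 and 3.32. The level of Phgdh in the mutant kidneys is accordingly uncertain from these arrays.

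**Figure D2:**
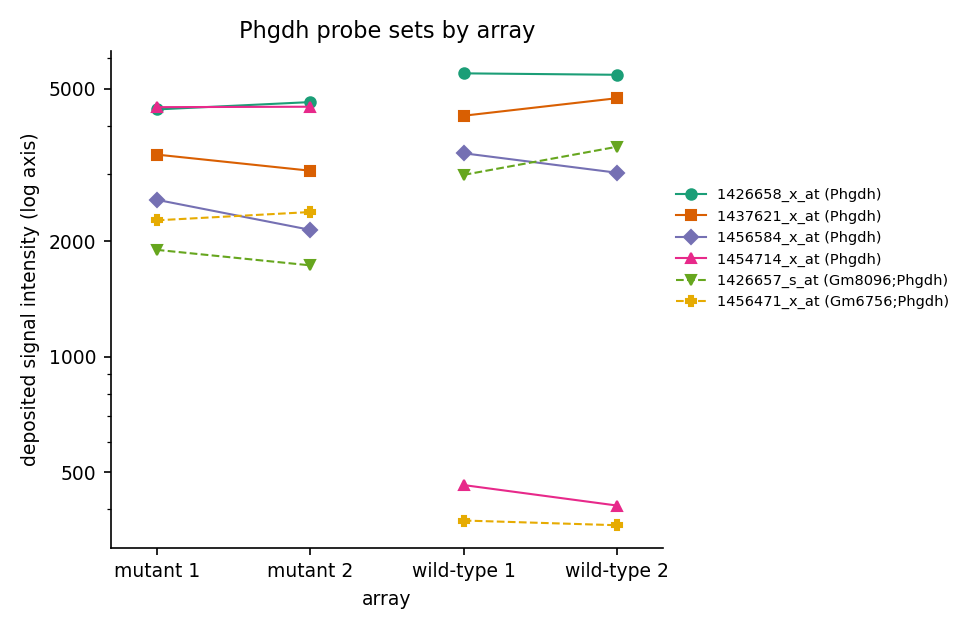
Deposited signal intensity (log axis) of the 6 probe sets that name Phgdh on the 2 mutant and the 2 wild-type arrays; solid lines join replicates of probe sets paired with Phgdh alone and dashed lines those of probe sets also paired with a pseudogene. The probe sets 1454714_x_at and 1456471_x_at are high on both mutant arrays and low on both wild-type arrays, and the other 4 are lower on the mutant arrays.

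Phgdh was chosen for this disagreement, so its place among other genes is a description from which nothing is read. Among the 6010 genes with 2 or more tested probe sets, the median range of log2 differences between probe sets of a gene was 0.34, and the 99th percentile was 1.81. Phgdh had a range of 3.80, at place 4, behind Paip1 (4.26), Meg3 (4.15) and Slc12a1 (3.91). Probe sets called in both directions were found for 16 genes (0.266%), and Phgdh had the widest range of those 16. The other member genes with several probe sets had ranges of 0.08 (Psat1) to 0.81 (Shmt1). Names ending in _x_at mark probe sets with probes that can also match other sequences, and 8 of the 20 member probe sets, all 4 of Phgdh among them, had such names. Over the whole array, 12.0% of the 1728 tested _x_at probe sets were called, against 10.2% of the 19959 plain _at probe sets. Probe sequences were not analysed here, and the part of strain differences or of pseudogene transcripts in the Phgdh signals was not tested.

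**Figure D3:**
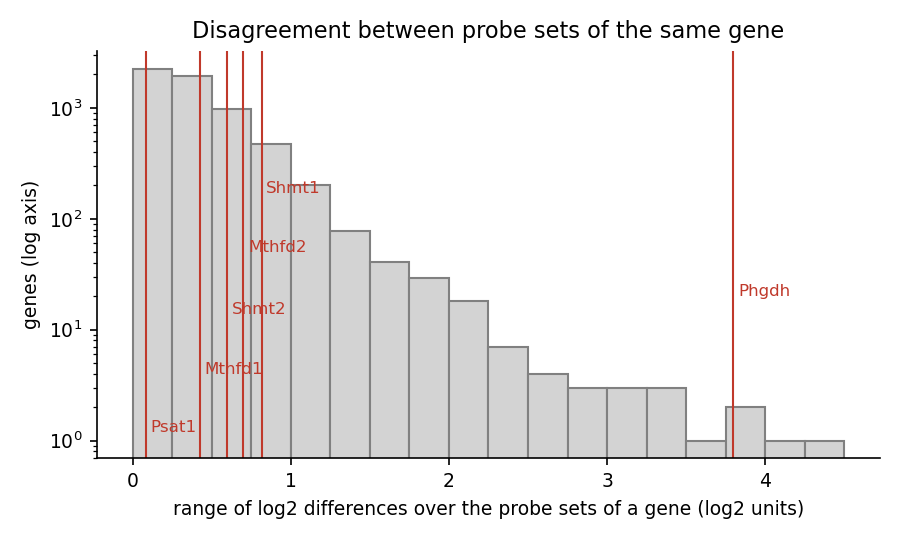
Number of genes (log axis) by the range of log2 differences over the tested probe sets of a gene, for 6010 genes with 2 or more of them; red lines mark the 6 member genes with several probe sets. Phgdh stands at 3.80 and the other 5 between 0.08 and 0.81.

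Psat1, phosphoserine aminotransferase, and Psph, phosphoserine phosphatase, catalyse the next steps of serine synthesis and had mutant signals slightly below the wild-type ones. Psat1 read 2317 and 2136 on the mutant arrays, against 2730 and 2721 on the wild-type arrays, at 1451064_a_at (-0.29 ± 0.09). At its other probe set, 1454607_s_at, it read 2300 and 1985 on the mutant arrays, against 2193 and 2779 on the wild-type arrays, and the groups overlapped (-0.21 ± 0.13). Psph read 734 and 705 on the mutant arrays, against 810 and 892 on the wild-type arrays, a log2 difference of -0.24 ± 0.12. None of these 3 probe sets was called, and their folds ran from 1.15 to 1.22 lower.

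Shmt1, the cytosolic serine hydroxymethyltransferase, had the lowest differences of the set. At 1422198_a_at it read 361 and 382 on the mutant arrays, against 874 and 845 on the wild-type arrays, a log2 difference of -1.18 ± 0.13 and a 2.26-fold lower level. At 1425179_at it read 806 and 805 on the mutant arrays, against 1465 and 1418 on the wild-type arrays (-0.83 ± 0.10, 1.77-fold lower). Both were called lower under all 14 alternative settings. At 1425177_at it read 741 and 687 on the mutant arrays, against 1190 and 839 on the wild-type arrays (-0.48 ± 0.17). At 1425178_s_at it read 516 and 583 on the mutant arrays, against 647 and 775 on the wild-type arrays (-0.36 ± 0.15). The groups did not overlap at any of the 4 Shmt1 probe sets, which with the mutant lower held at 28.0% of all tested probe sets. The last 2 named were not called.

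Shmt2, the mitochondrial counterpart, had lower means in the mutant at 3 of its 4 probe sets. It read 1773 and 1747 on the mutant arrays, against 2539 and 2433 on the wild-type arrays, at 1455084_x_at (-0.49 ± 0.09, 1.41-fold lower). It read 994 and 869 on the mutant arrays, against 1404 and 1299 on the wild-type arrays, at 1426423_at (-0.53 ± 0.12, 1.45-fold lower). These 2 were called and did not overlap between the groups. The call at 1426423_at held under 11 of 14 alternative settings and that at 1455084_x_at under 9 of 13. The latter was lost, among others, without mutant replicate 1. At 1455985_x_at it read 300 and 408 on the mutant arrays, against 578 and 489 on the wild-type arrays (-0.58 ± 0.19), and this was not called. The dimmest probe set, 1434204_x_at, read 224 and 182 on the mutant arrays, against 282 and 141 on the wild-type arrays, with overlapping groups and a difference of 0.01 ± 0.32.

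Mthfd1, the cytosolic enzyme that interconverts folate-bound carbon units, was called lower at 2 of its 3 probe sets. At 1415917_at it read 1466 and 1576 on the mutant arrays, against 2561 and 2472 on the wild-type arrays, a log2 difference of -0.72 ± 0.09 and a 1.65-fold lower level. At 1415916_a_at the replicates were farther apart, at 1339 and 1826 on the mutant arrays, against 2183 and 3082 on the wild-type arrays, and the difference was again -0.72, with an SE of 0.19. That call held under 8 of 14 alternative settings. It was lost without wild-type replicate 2 and without mutant replicate 1. Quantile normalization, no filter, no intensity trend and a robust variance model also lost it. At 1436704_x_at it read 354 and 328 on the mutant arrays, against 367 and 487 on the wild-type arrays (-0.30 ± 0.19). At each of the 3 both mutant arrays were below both wild-type arrays, as they were at 28.0% of all tested probe sets.

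Mthfd2, the mitochondrial methylenetetrahydrofolate dehydrogenase, differed between its 2 probe sets. At 1419254_at it read 552 and 536 on the mutant arrays, against 931 and 983 on the wild-type arrays (-0.80 ± 0.12, 1.74-fold lower), and this was called under all 14 alternative settings. At 1419253_at it read 611 and 807 on the mutant arrays, against 721 and 785 on the wild-type arrays, with overlapping groups and a log2 difference of -0.10 ± 0.16. Over the 13 probe sets of the 4 folate enzymes, 7 were called lower and 0 higher, with a median log2 difference of -0.53. Over the 7 probe sets of the 3 serine synthesis genes, 2 were called lower and 1 higher, with a median of -0.27. The shares over all tested probe sets were 5.39% lower and 5.41% higher. The members were chosen from this contrast, so nothing is read from these counts. The median was -0.72 for the 7 probe sets of the cytosolic Shmt1 and Mthfd1 and -0.51 for the 6 of the mitochondrial Shmt2 and Mthfd2. The difference between these groups of probe sets was not tested.

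**Figure D4:**
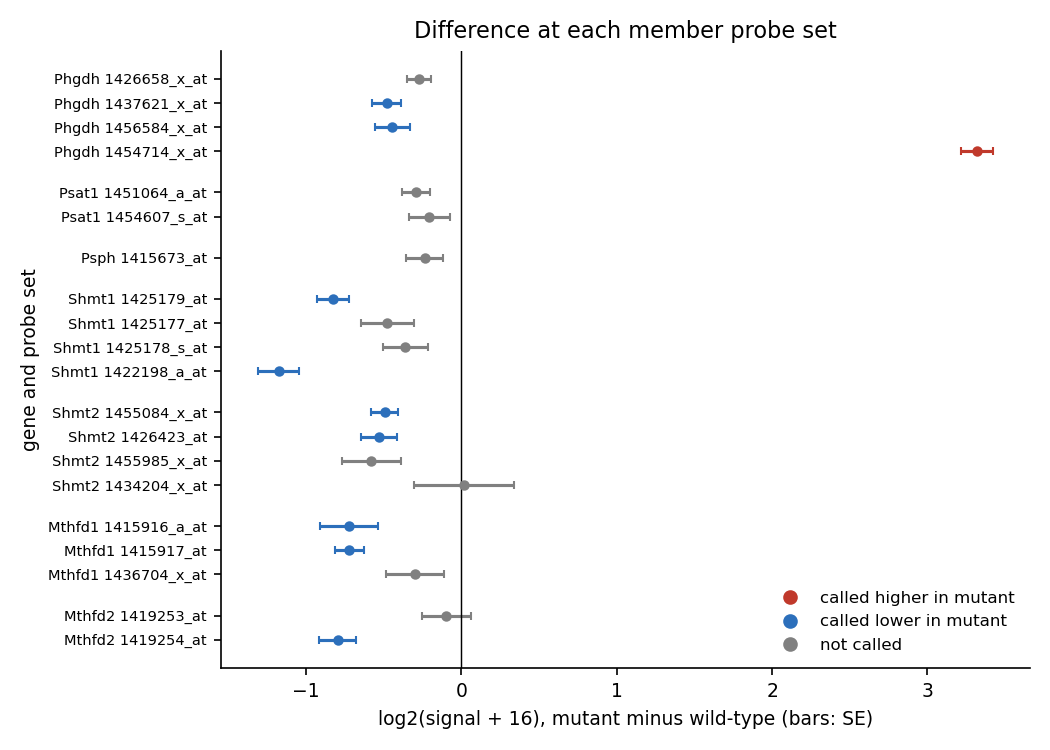
Log2(signal + 16), mutant minus wild-type, for each member probe set; bars are SEs from the fit over all tested probe sets (2 arrays per group), and colour gives the call. All points but 2 lie below 0, from -1.18 at Shmt1 1422198_a_at upward, and Phgdh 1454714_x_at lies at 3.32.

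The bases just upstream of 1 annotated start of each gene are shown, taken from RefSeq (GRCm38.p6). Psat1 had 2 starts in the table, of which the outermost is shown. The starts used for Psph, Mthfd1 and Mthfd2 lay 190, 826 and 8407 bases inside the outer end of the annotated gene, so for these 3 the bases shown lie within the gene and not before it. Each line holds the 100 bases before the start, 5′ to 3′ on the gene's strand, and capitals mark the motif CCAAT, or ATTGG where it lies on the opposite strand. CCAAT is the core of the binding site of the factor NF-Y.
Phgdh, chr3:98339970-98340069, minus strand: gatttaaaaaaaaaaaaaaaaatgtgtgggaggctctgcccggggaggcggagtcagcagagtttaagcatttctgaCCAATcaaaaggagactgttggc
Psat1, chr19:15925060-15925159, minus strand: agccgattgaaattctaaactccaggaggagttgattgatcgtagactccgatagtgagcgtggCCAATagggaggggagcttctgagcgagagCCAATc
Psph, chr5:129787254-129787353, minus strand: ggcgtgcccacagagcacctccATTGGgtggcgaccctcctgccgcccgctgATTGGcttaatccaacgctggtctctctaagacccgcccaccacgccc
Shmt1, chr11:60811266-60811365, minus strand: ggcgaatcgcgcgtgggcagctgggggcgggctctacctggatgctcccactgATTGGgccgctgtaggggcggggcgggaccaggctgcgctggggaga
Shmt2, chr10:127522445-127522544, minus strand: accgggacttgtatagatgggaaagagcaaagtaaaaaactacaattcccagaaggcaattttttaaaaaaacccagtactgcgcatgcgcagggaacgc
Mthfd1, chr12:76255132-76255231, plus strand: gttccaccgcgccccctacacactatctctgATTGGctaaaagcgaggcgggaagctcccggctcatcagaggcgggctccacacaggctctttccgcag
Mthfd2, chr6:83317605-83317704, minus strand: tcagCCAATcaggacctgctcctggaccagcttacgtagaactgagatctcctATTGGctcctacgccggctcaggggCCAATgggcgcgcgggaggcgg

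The motif was present in 6 of these 7 stretches, once in Phgdh, Shmt1 and Mthfd1, at 2 places in Psat1 and Psph and at 3 in Mthfd2. Of all 32851 promoters in the table, which belong to 27025 genes whether expressed here or not, 18.9% held it in the same 100 bases. In the 300 bases around each start it was present in 6 of the 7 genes and in 37.4% of all promoters. Shmt2 had no match in this window. The motif TGATGNAA, a core of the elements that Atf4 and its partners bind, was searched on both strands of the 300 bases around each start and was found in 0 of the 7 genes and in 3.97% of all promoters. A match describes letters in the reference genome and is not a measurement of binding. Any link of either motif to the array signals was not tested.

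Other genes of the same metabolism were read at 1 probe set per gene, the brightest tested one, in 5 lists. Of 71 tested genes, 11 were lower, 3 were higher and 57 did not pass, that is 19.7% called, where 12.5% of all 13432 genes were called (5.82% lower and 6.70% higher). The median log2 difference of the 71 genes was -0.13. Shares over all genes stand beside the count of each list below. Only 3 of the 14 calls, those of Folr1, Slc1a5 and Adssl1, held under every alternative setting in which the probe set was tested, and 11 were lost under at least 1. Adssl1, which is included in these counts, passed the filter only through its wild-type arrays. It was not tested when more of the dim probe sets were left out, so its call is a description only. Of 10 further tested probe sets of called genes, 1 was called, in the same direction. The 30 genes that were not called at the brightest probe set but had others held 56 further probe sets, of which 6 were called lower and 1 higher, in 6 genes.

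Among 15 tested genes of the folate cycle and folate carriers, 3 were lower and 0 higher, with a median log2 difference of -0.23. Over all genes, 5.82% were called lower and 6.70% higher. Folr1, a folate receptor of the cell surface, read 211 and 199 on the mutant arrays, against 866 and 964 on the wild-type arrays, a 4.21-fold lower level (limma adjusted p = 0.000187). Sfxn1, a mitochondrial serine carrier, read 1957 and 2083 on the mutant arrays, against 3212 and 2801 on the wild-type arrays, and was 1.48-fold lower (limma adjusted p = 0.0101), while a further probe set for it did not pass. Slc19a1, the reduced folate carrier, was 1.36-fold lower (limma adjusted p = 0.0464) and was also called at its other probe set. The call of Slc19a1 was lost when any 1 array was left out, and without mutant replicate 1 that of Sfxn1 was lost too, which left 1 of the 15 genes called.

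Serine and glycine carriers and serine-using enzymes held 1 called gene of 11, with a list median of -0.04. Over all genes 12.5% were called in either direction, so nothing is read from this count. Slc1a5, a carrier of neutral amino acids, read 137 and 161 on the mutant arrays, against 861 and 672 on the wild-type arrays, a 4.73-fold lower level (limma adjusted p = 0.000364). Slc38a2, another such carrier, read 5347 and 5122 on the mutant arrays, against 4478 and 4660 on the wild-type arrays, and did not pass (limma adjusted p = 0.169). Slc38a1, a related carrier, was not called at its brightest probe set but was lower at another by a log2 difference of -0.55 ± 0.13 (limma adjusted p = 0.0307). Without mutant replicate 2 the count was 2 of 11.

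The list of glycine cleavage, the methionine cycle and transsulfuration had calls in both directions, 2 lower and 1 higher among 11 tested genes. Its median was -0.08, and the shares over all genes were 5.82% lower and 6.70% higher. Cth, which makes cysteine from cystathionine, was 1.36-fold lower (limma adjusted p = 0.0349), and Gcsh, a protein of the glycine cleavage system, was 1.28-fold lower (limma adjusted p = 0.0421). Mtr, methionine synthase, read 769 and 673 on the mutant arrays, against 522 and 453 on the wild-type arrays, a log2 difference of 0.55 ± 0.14 (limma adjusted p = 0.0480), and its other probe set did not pass. No gene of this list was called without mutant replicate 1, without mutant replicate 2 or with arrays centred on their medians, and 1, Cth, was called without wild-type replicate 2. The call of Cth was lost without wild-type replicate 1.

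Purine synthesis genes were called lower for 2 of 12, and higher for 0, with a median of -0.19. The share called in either direction over all genes was 12.5% (5.82% lower and 6.70% higher), so nothing is read from this count. Adssl1, an adenylosuccinate synthase, read 35.0 and 42.7 on the mutant arrays, against 282 and 240 on the wild-type arrays. That was a 5.05-fold lower level. Both mutant values lay below 94.2, the lowest mean kept, so Adssl1 passed the filter only through its wild-type arrays. Its call is therefore given as a description. It was not tested when more of the dim probe sets were left out. Ppat, which catalyses the committed step of purine synthesis, read 694 and 652 on the mutant arrays, against 943 and 967 on the wild-type arrays, and was 1.41-fold lower (limma adjusted p = 0.0317). Its other probe set did not pass, and its call was lost without mutant replicate 1 or 2. The count was 4 of 12 without wild-type replicate 2. Genes not called at the brightest probe set had calls in both directions at others. Gart, which acts at several steps of the pathway, was lower at 2 of them (-0.58 and -0.54, limma adjusted p = 0.0107 and 0.0183), and Atic, which acts at its last steps, was lower at 1 (-0.70, limma adjusted p = 0.0424). Gmps, which makes GMP, was higher at 1 (0.60, limma adjusted p = 0.0168).

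Atf4 and genes of the amino acid response, of which several member enzymes are known targets, went both ways. Of 22 genes, 3 were lower and 2 higher, beside shares of 5.82% and 6.70% over all genes, and the median was -0.15. Atf4 itself read 3119 and 3457 on the mutant arrays, against 4185 and 4206 on the wild-type arrays, and was 1.28-fold lower (limma adjusted p = 0.0390). Its other probe set did not pass (limma adjusted p = 0.234), and the call was lost under 7 of 14 alternative settings. Among these were arrays centred on their medians (limma adjusted p = 0.226) and no intensity trend (limma adjusted p = 0.208). The call was also lost with no filter (limma adjusted p = 0.0758) and with quantile normalization (limma adjusted p = 0.0517). The remaining settings were the replicate block (limma adjusted p = 0.0531) and the fits without mutant replicate 1 or 2. The glycine and serine tRNA synthetase genes Gars and Sars were 1.28-fold and 1.26-fold lower (limma adjusted p = 0.0313 and 0.0389), and the other probe set of Sars did not pass (limma adjusted p = 0.259). Wars, the tryptophan tRNA synthetase gene, and Eif4ebp1, an inhibitor of translation initiation, were not called at their brightest probe sets and were lower at another (-0.59 and -0.39, limma adjusted p = 0.0144 and 0.0363). Ddit4, a stress-induced inhibitor of mTORC1, read 4326 and 3779 on the mutant arrays, against 1646 and 1066 on the wild-type arrays, a log2 difference of 1.60 ± 0.18 (limma adjusted p = 0.00136). Aldh18a1, an enzyme of proline synthesis, was higher by 0.41 ± 0.10 (limma adjusted p = 0.0383), and its 4 further probe sets did not pass. Without mutant replicate 1, and likewise without mutant replicate 2, Ddit4 was the 1 gene of the list called, and without wild-type replicate 1 the call of Sars was lost.

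**Figure D5:**
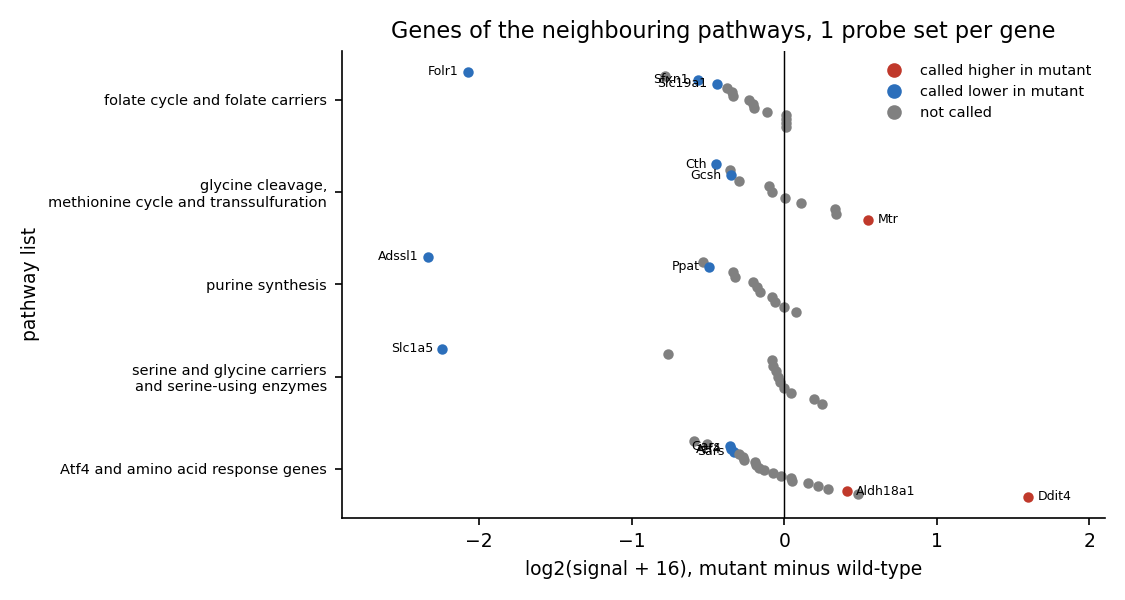
Log2(signal + 16), mutant minus wild-type, of 71 genes in 5 lists of neighbouring pathways, 1 point per gene at its brightest tested probe set; called genes are coloured and named. Folr1, Adssl1 and Slc1a5 lie below -2, Ddit4 lies at 1.60 and most other points lie within 0.6 of 0.

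Cell type markers moved between the same arrays, and in whole kidneys fewer cells of a type and less RNA per cell cannot be told apart. Of 9 renal vesicle genes 9 were called lower, of 12 proximal tubule genes 10, and of 6 podocyte genes 5, with 0 higher in any of these lists. The renal vesicle genes include Wnt4, the targeted gene itself, in both the count and the sum. Cdh6 is counted among the renal vesicle and also among the proximal tubule genes. Summed signals of the proximal tubule genes were 1840 and 1988 on the mutant arrays, against 10145 and 10686 on the wild-type arrays, and those of the renal vesicle genes 8549 and 8046 on the mutant arrays, against 18622 and 19597 on the wild-type arrays. The podocyte genes summed to 3608 and 3365 on the mutant arrays, against 7726 and 7361 on the wild-type arrays. Of 10 stromal genes 7 were higher and 0 lower (sums 58317 and 58348 on the mutant arrays, against 38155 and 34802 on the wild-type arrays). Of 10 proliferation genes 3 were lower and 0 higher (sums 50755 and 50391 on the mutant arrays, against 61276 and 58394 on the wild-type arrays). Among the other lists, called genes numbered 3 lower and 2 higher of 9 nephron progenitor genes. They numbered 3 lower and 1 higher of 10 ureteric bud genes and 4 lower of 8 endothelial genes. Called higher were 2 of 6 erythroid and 6 of 8 skeletal muscle genes. Of 4 adrenal genes 2 were called lower, and of 6 macrophage genes 0 were called. Over all 13432 genes, 5.82% were called lower and 6.70% higher. Skeletal muscle genes summed to 7800 and 7392 on the mutant arrays, against 2057 and 1293 on the wild-type arrays. Erythroid genes summed to 22728 and 23692 on the mutant arrays, against 10824 and 10782 on the wild-type arrays. Endothelial genes summed to 7630 and 7803 on the mutant arrays, against 10860 and 10468 on the wild-type arrays. The part of any of these in the enzyme signals was not tested.

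Among tested probe sets with a gene of their own, the 5 closest in pattern to the brightest Phgdh probe set, 1426658_x_at, were those of Mcm7, Apex1, Rac1, Oxt and Cox6c, at Euclidean distances of 0.014 to 0.025 between log2 values centred over the 4 arrays. For 1454714_x_at, looked up after its value was seen, the 5 closest of all tested probe sets were those of Lrrtm1, Paip1, Tacr3, Ano4 and Creb5, at distances of 0.22 to 0.50. Each distance rests on 4 values per probe set.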

How the data were processed

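The table analysed holds the authors' deposited signal intensities, 1 value per probe set and array. Per the submitters' processing notes, GCOS was used (no version). How probes were summarised and to what level arrays were scaled is not given in the sources used here. From these, log2(signal + 16) was computed with no further normalization, the 64 AFFX control probe sets and the lowest 40% of probe sets by mean were left out, and limma 3.58.1 (R 4.3.3; lmFit, eBayes with an intensity trend, two-sided, Benjamini-Hochberg) was fitted to the remaining 27022. The lowest mean kept corresponded to a signal of 94.2. The added 16 understates the change of dim genes. The script was tested on simulated data. A first simulation, with spreads shuffled over probe sets, called fewer of its larger planted changes than the test required, and it was eased by keeping the spread of each probe set and planting larger changes. Estimates were unbiased in both versions and most planted changes of the smaller size were missed, so a probe set that was not called is not shown to be unchanged.

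Probe sets were named through the platform annotation: 34958 named 1 gene, 932 several and 9211 were unnamed here. Of 200 entries in the gene lists 187 were on the array. Members and lists were chosen with earlier results of these data known. Named were all members, up to 5 called genes with the smallest p per pathway list, Wnt4, the kidney genes Six2, Wt1, Foxd1 and Ret (Pax2 was not analysed here), and the nearest patterns; Slc38a2, Slc38a1, Gart, Atic, Gmps, Wars, Eif4ebp1, Paip1, Meg3 and Slc12a1 were named after their values were seen. The number of arrays limits the precision. Same-numbered replicates of the 2 genotypes did not deviate together (correlation of deviations -0.02).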

Additional observations from a re-analysis of the deposited data

Results flagged for a closer look

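The probe set 1456471_x_at, which the platform annotation pairs with both Gm6756 and Phgdh and which therefore stood outside the counts of member probe sets, had a mean signal of 2327 ± 82.0 (SD, n = 2) on the mutant arrays and 368.9 ± 7.40 (n = 2) on the wild-type arrays. It was flagged as a signal outside the main measurement that lay above its level in the wild-type samples (log2 difference 2.61). This pattern was chosen from the same arrays, and its cause was not tested.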

How the results depend on the processing

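Of 269 member differences recomputed under alternatives, 265 moved by less than the spread between replicates. The other 4 moved by more, all with a pseudocount of 64. Settings that changed only the filter, the variance model, the replicate block or the set of probe sets cannot change a difference. Leaving out 1 array moves it only by part of the gap between 2 replicates. Nothing is therefore read from the 265. None of the called differences changed sign, while 2 uncalled ones, Shmt2 1434204_x_at and Mthfd2 1419253_at, changed sign under some alternative. Of the 10 called member probe sets, 4 stayed called under every alternative run: Phgdh 1454714_x_at, Shmt1 1425179_at and 1422198_a_at, and Mthfd2 1419254_at. Of the uncalled ones, 2 were called under some alternative. With arrays centred on their medians the called numbers were 6 among member probe sets, 0 in the glycine cleavage list, 1 in purine synthesis and 1 in the Atf4 list. Without an intensity trend they were 858 over all probe sets, 4 among members, 1 in the folate list, 0 in the glycine cleavage list, 1 in purine synthesis and 0 in the Atf4 list. With no filter they were 0 in the glycine cleavage list, 2 among serine and glycine carriers and 1 in the Atf4 list. Without _x_at and _s_at probe sets they were 6 of 10 among members and 2 among serine and glycine carriers. With all tested probe sets of a gene averaged they were 4 in purine synthesis and 3 in the Atf4 list. With the replicate block they were 2913 over all probe sets, 10 among members and 3 in the Atf4 list; the samples share only a number. Leaving out 1 array gave 1479 to 3927 over all probe sets, 6 to 10 among members, 1 to 2 in the folate list, 0 to 2 in the glycine cleavage list, 1 to 4 in purine synthesis, 1 to 2 among serine and glycine carriers and 1 to 6 in the Atf4 list; the array left alone in its group was assumed to vary like the others. The causes of these changes were not tested beyond the smaller number of arrays or probe sets.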
